A study of Homo sapiens with 8 samples.

Results

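The genes described here are 35 named genes of the NF-kB pathway and of the inflammatory cytokines that it controls. They were taken by gene symbol, with earlier results of these data known. Of the 35 genes, 33 had introns in the deposited tables, 248 introns in all, out of 15902 genes and 142206 introns. No intron is listed for TNF or LIF, and both were not analysed here. The cells were SUM159, a human line of triple-negative breast cancer, given the spliceosome inhibitor H3B-8800 or its vehicle DMSO for 12 h. H3B-8800 binds the SF3b complex, which recognises the branch point near the end of an intron. The sequenced RNA was either the input or the fraction pulled down by J2, which binds double-stranded RNA. This gave 4 groups of 2 libraries, which the series describes as biological duplicates of a single line: input with DMSO, input with H3B-8800, J2 with DMSO and J2 with H3B-8800. No genotype or second agent is named, and no library made with a control antibody was used here, so enrichment by J2 cannot be told apart from carry-over in the immunoprecipitation. What separates 2 libraries of a group is not detailed further, so p-values measure the spread between them.

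NF-kB is a family of dimeric transcription factors (RELA, RELB, REL, and the products of NFKB1 and NFKB2) that IkB proteins hold in the cytoplasm. Receptors such as those for TNF assemble TRAF and cIAP proteins and ubiquitin chains, which switch on the IKK kinase complex. IKK then marks IkB for destruction, or, in the non-canonical branch, starts the processing of the NFKB2 precursor, and the dimers turn on cytokines, adhesion molecules and their own inhibitors. Mesenchymal breast cancer lines often carry some NF-kB activity, with IL6 and CXCL8 as well-known outputs.

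For every intron the tables give reads inside the intron (intronic) and reads spliced across it. Both are given here as reads per megaread of the library's depth (RPM), summed over the listed introns of a gene, and the intronic share is intronic reads as a percent of intronic and spliced reads together. Library depth was 47000000 to 57000000 reads. Over all listed introns, the intronic share was 3.63% to 3.98% in the 4 DMSO libraries and 10.3% to 13.03% in the 4 H3B-8800 libraries. The 8 mesenchymal markers, VIM and AXL among them, all had spliced reads in every library and summed to 1898 to 3259 RPM. The 8 luminal or epithelial markers summed to 167 to 265 RPM, 7 listed immune markers to 5.96 to 9.58 RPM and 4 endothelial markers to 0.0526 to 0.167 RPM. Per library, 4 to 6 of the epithelial, 1 to 4 of the immune and 1 or 2 of the endothelial markers had spliced reads. ESR1, PGR, CD3E, LYZ and CDH5 had none. The mesenchymal sum was higher with the drug in the input and lower in J2 RNA, and the epithelial sum was lower with the drug in both. Their part in the results was not tested. In bulk RNA, fewer cells and less RNA per cell cannot be told apart.

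Spliced reads of 24 members passed the filter of 1 RPM in at least 2 libraries. With H3B-8800 in the input, 3 of them rose and 16 fell at an adjusted p under 0.05 (edgeR's quasi-likelihood test, Benjamini-Hochberg over all 8461 genes tested). Over all genes 21.8% rose and 48.7% fell. The median log2 change was -0.95 for the members and -0.38 for all genes. In J2 RNA, 4 members rose and 12 fell, against 34.6% and 39.5% of all genes, with medians of -0.41 and -0.03. Scaling by the median of ratios, which sets the typical gene to no change, moved the split to 7 up and 13 down in the input, against 37.6% and 34.4% of all genes, and to 6 up and 12 down in J2 RNA, against 38% and 37.1%. The members that fell furthest in the input were NFKB2, CHUK, BIRC3, TRAF1, RELB, IKBKB and IL6. NFKBIA, RELA and NFKB1 rose. Summed over their junctions, the non-canonical subunits therefore moved the opposite way to the canonical ones in the same libraries.

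**Figure D1:**
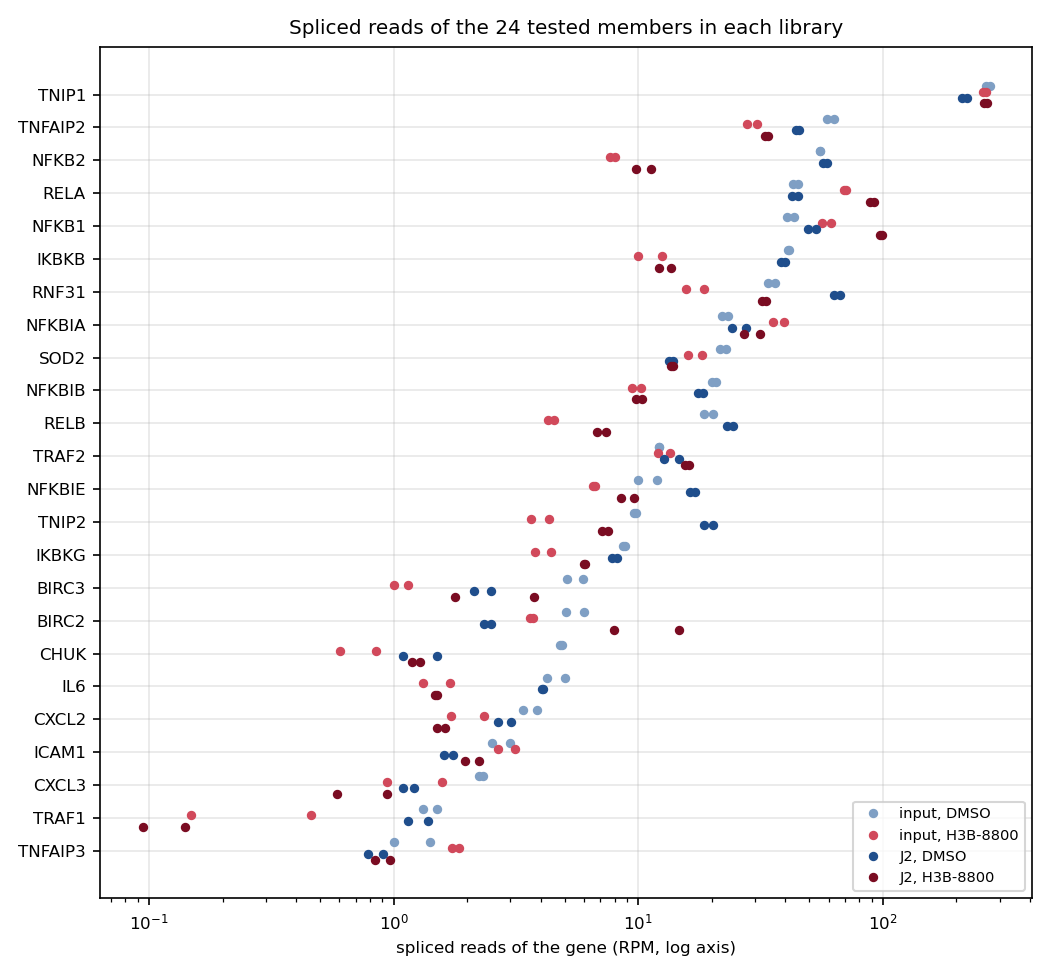
Spliced reads (RPM, log axis) of the 24 tested members, one point per library, ordered by the level in the input with DMSO, with 2 points for each of 4 groups. NFKB2 and RELB lie lower in the H3B-8800 libraries than in the DMSO libraries of both RNA fractions, while RELA and NFKB1 lie higher. Levels sum all junctions of a gene and are to be compared within a row.

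Among the 5 family members, RELA encodes p65, the main activating subunit. Its spliced reads were 42.8 and 45.1 RPM in the input with DMSO, 69.4 and 70.6 with H3B-8800, 44.9 and 42.3 in J2 RNA with DMSO, and 92.1 and 88.8 in J2 RNA with H3B-8800. All 4 drug libraries lay above all 4 DMSO libraries. The log2 change was 0.67 ± 0.06 (SE, n = 2 libraries a group, edgeR adjusted p = 4.65e-06) in the input and 1.05 ± 0.06 (edgeR adjusted p = 2.27e-07) in J2 RNA.

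NFKB1, which encodes the p105 precursor of p50, had 40.4 and 43.3 RPM in the input with DMSO and 56.2 and 61.4 with the drug. In J2 RNA it had 53.3 and 49.6 RPM with DMSO and 99.7 and 97.8 with the drug. The drug groups lay above the DMSO groups of the same fraction without overlap, at log2 changes of 0.49 ± 0.07 (edgeR adjusted p = 0.000118) and 0.94 ± 0.07 (edgeR adjusted p = 1.15e-06). These are sums over junctions, and not every junction rose. In the input the 22 junctions ran from -1.13 (intron 21) to 1.10 (intron 15) on the log2 scale (reads + 1), with a median of 0.52. In J2 RNA they ran from -0.43 (intron 15) to 3.55 (intron 4), with a median of 1.07.

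NFKB2 encodes p100, the precursor of p52 and an inhibitor in its own right. Its spliced reads went from 55.3 and 55.4 RPM to 7.70 and 8.06 in the input. In J2 RNA they went from 59.1 and 57.2 RPM to 9.76 and 11.3. These were log2 changes of -2.81 ± 0.08 (edgeR adjusted p = 8.04e-09) and -2.46 ± 0.08 (edgeR adjusted p = 1.89e-08), the lowest log2 change among the 24 members in the input. The fall ran along the whole transcript: all 20 listed junctions fell in the input, by between -3.74 and -2.15 on the log2 scale (reads + 1).

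RELB, the partner of p52, went from 18.5 and 20.3 RPM to 4.51 and 4.29 in the input, and from 23.0 and 24.5 to 7.40 and 6.75 in J2 RNA. The log2 changes were -2.14 ± 0.10 (edgeR adjusted p = 7.12e-08) and -1.75 ± 0.10 (edgeR adjusted p = 2.18e-07). Its junctions did not fall alike. The first listed junction had 62 and 73 reads with DMSO and 38 and 44 with the drug in the input, and the next had 45 and 66 against 47 and 39. From intron 4 on the counts dropped: 86 and 78 reads against 14 and 12 at intron 4, 105 and 114 against 14 and 15 at intron 5, and 93 and 112 against 6 and 7 at intron 10. With the drug the first 2 listed junctions had more reads than any junction after them in both input libraries. The second listed intron (chromosome 19, 45003001 to 45011934) matches no intron of the linked GENCODE 29 transcript.

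**Figure D2:**
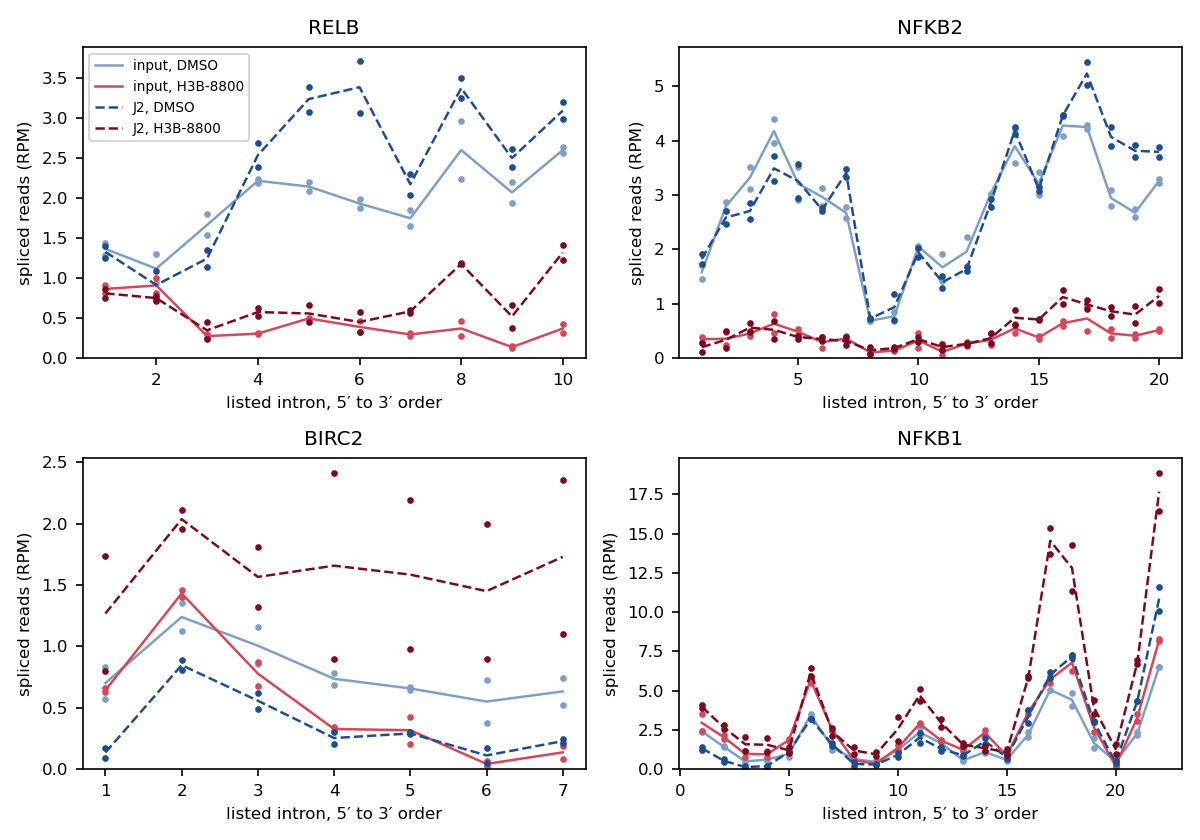
Spliced reads (RPM) at each listed intron of RELB, NFKB2, BIRC2 and NFKB1, in 5′ to 3′ order. Lines join the means of 2 libraries and points are single libraries. RELB with H3B-8800 has more reads at its first 2 listed junctions than after them in the input, and lies further below DMSO from intron 4 on, NFKB2 lies below DMSO at all 20, and the 2 J2 libraries of BIRC2 with H3B-8800 stand far apart.

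The IkB proteins hold NF-kB dimers in the cytoplasm, and NFKBIA (IkB alpha) is among the fastest genes that NF-kB induces. NFKBIA had 21.98 and 23.3 RPM with DMSO and 35.4 and 39.6 with the drug in the input, without overlap, a log2 change of 0.73 ± 0.10 (edgeR adjusted p = 0.000103). In J2 RNA the values were 27.5 and 24.2 against 31.3 and 27.1, which overlap, and the log2 change of 0.18 ± 0.10 did not pass (edgeR adjusted p = 0.119).

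NFKBIB (IkB beta) went from 20.9 and 20 RPM to 9.47 and 10.3 in the input and from 18.4 and 17.6 to 9.76 and 10.4 in J2 RNA. Both falls passed, at -1.05 ± 0.09 (edgeR adjusted p = 3.58e-06) and -0.83 ± 0.09 (edgeR adjusted p = 1.61e-05). NFKBIE (IkB epsilon) went from 11.9 and 9.98 RPM to 6.68 and 6.54 in the input and from 17.1 and 16.2 to 9.62 and 8.51 in J2 RNA. Its changes were -0.73 ± 0.12 (edgeR adjusted p = 0.000348) and -0.88 ± 0.11 (edgeR adjusted p = 7.18e-05), and the call in the input was lost with DESeq2, where the log2 change was -0.32. The 3 IkB genes thus did not share a direction in the input.

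The IKK complex consists of the kinases CHUK (IKK alpha) and IKBKB (IKK beta) and the scaffold IKBKG (NEMO). Spliced reads of all 3 fell in the input. IKBKB went from 40.9 and 41.3 RPM to 9.96 and 12.5 in the input and from 39.8 and 38.4 to 13.6 and 12.1 in J2 RNA, at -1.87 ± 0.11 (edgeR adjusted p = 2.48e-07) and -1.60 ± 0.10 (edgeR adjusted p = 6.4e-07). IKBKG went from 8.85 and 8.69 RPM to 4.38 and 3.77 in the input, and from 7.79 and 8.23 to 6.06 and 6.02 in J2 RNA. Its changes were -1.10 ± 0.12 (edgeR adjusted p = 2.22e-05) and -0.41 ± 0.11 (edgeR adjusted p = 0.00921). The J2 call of IKBKG was lost with DESeq2 and without the second J2 library with DMSO. IKBKG has a near-identical pseudogene copy on the X chromosome, so its reads are uncertain.

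CHUK had 4.88 and 4.80 RPM with DMSO and 0.851 and 0.604 with the drug in the input, a log2 change of -2.73 ± 0.25 (edgeR adjusted p = 7.5e-06). In J2 RNA it had 1.09 and 1.51 RPM with DMSO and 1.28 and 1.19 with the drug, at -0.08 ± 0.25 (edgeR adjusted p = 0.78). The level in J2 RNA with DMSO was already far below that of the input. In the input its first junction had 69 and 66 reads with DMSO and 20 and 22 with the drug, and junction 14 had 11 and 21 against 1 and 0.

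The ubiquitin ligases and adaptors upstream of IKK split by gene. BIRC2 and BIRC3 encode cIAP1 and cIAP2, which build ubiquitin chains at TNF receptors and restrain the non-canonical pathway. BIRC3 went from 5.12 and 5.92 RPM to 1.15 and 1.00 in the input, at -2.36 ± 0.32 (edgeR adjusted p = 0.00012). In J2 RNA it had 2.49 and 2.12 RPM with DMSO and 1.78 and 3.75 with the drug. There the drug libraries lay on both sides of the DMSO libraries, at 0.27 ± 0.30 (edgeR adjusted p = 0.442).

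BIRC2 had 5.06 and 5.98 RPM with DMSO and 3.62 and 3.73 with the drug in the input, a change of -0.59 ± 0.25 that did not pass (edgeR adjusted p = 0.0621). In J2 RNA it had 2.51 and 2.33 RPM with DMSO and 7.96 and 14.6 with the drug, a rise of 2.22 ± 0.26 (edgeR adjusted p = 3.51e-05). The 2 J2 libraries with the drug differed from each other by more than any other pair of this gene, and both lay above every other library. In the input its junctions changed unevenly: intron 3 had 54 and 69 reads with DMSO and 66 and 70 with the drug, while intron 7 had 18 and 37 against 1 and 3. In J2 RNA all 7 listed junctions were higher with the drug, by 1.26 to 3.64 on the log2 scale (reads + 1).

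TRAF1 and TRAF2 are adaptors of the TNF receptor family. TRAF1 went from 1.5 and 1.31 RPM to 0.149 and 0.458 in the input and from 1.38 and 1.14 to 0.140 and 0.0943 in J2 RNA. Both falls passed, at -2.20 ± 0.44 (edgeR adjusted p = 0.00137) and -3.403 ± 0.501 (edgeR adjusted p = 0.000179). TRAF2 had 12.2 and 12.1 RPM with DMSO and 12.0 and 13.5 with the drug in the input, and 14.7 and 12.8 against 16.1 and 15.5 in J2 RNA. Neither of its log2 changes passed, at 0.07 ± 0.10 (edgeR adjusted p = 0.552) and 0.20 ± 0.10 (edgeR adjusted p = 0.0898).

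RNF31 (HOIP) is the catalytic subunit of the linear ubiquitin ligase LUBAC. It went from 36.2 and 34.0 RPM to 15.6 and 18.5 in the input and from 66.6 and 63.4 to 33.2 and 31.9 in J2 RNA. The changes were -1.04 ± 0.09 (edgeR adjusted p = 3.39e-06) and -0.998 ± 0.082 (edgeR adjusted p = 3.39e-06).

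TNFAIP3 (A20) removes ubiquitin chains, and TNIP1 and TNIP2 are the A20-binding proteins ABIN1 and ABIN2. TNIP1 had the highest spliced level per listed intron of the members in the input with DMSO, at 22.4 RPM per intron, ahead of SOD2 at 11.1. Its sums were 264 and 273 RPM with DMSO and 258 and 264 with the drug in the input, at -0.04 ± 0.05 (edgeR adjusted p = 0.43). In J2 RNA it went from 222 and 211 RPM to 266 and 260, at 0.28 ± 0.05 (edgeR adjusted p = 0.000452). TNIP2 went from 9.75 and 9.59 RPM to 3.66 and 4.33 in the input and from 20.2 and 18.5 to 7.54 and 7.11 in J2 RNA, at -1.27 ± 0.11 (edgeR adjusted p = 6.42e-06) and -1.40 ± 0.11 (edgeR adjusted p = 2.07e-06). TNFAIP3 stayed low in every library: 1.00 and 1.41 RPM with DMSO and 1.85 and 1.73 with the drug in the input, and 0.906 and 0.789 against 0.840 and 0.962 in J2 RNA. Its log2 change in the input, 0.57 ± 0.27, did not pass (edgeR adjusted p = 0.0819).

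Cytokine and chemokine genes were low or near 0 in these cells. IL6, the main inflammatory cytokine of mesenchymal breast lines, had 4.25 and 5 RPM with DMSO and 1.32 and 1.71 with the drug in the input, and 4.08 and 4.04 against 1.5 and 1.47 in J2 RNA. The groups did not overlap, at -1.61 ± 0.19 (edgeR adjusted p = 4.53e-05) and -1.45 ± 0.19 (edgeR adjusted p = 8.33e-05). CXCL2, a neutrophil chemokine, had 3.38 and 3.86 RPM against 1.72 and 2.33 in the input and 2.66 and 3.02 against 1.5 and 1.62 in J2 RNA, at -0.83 ± 0.21 (edgeR adjusted p = 0.00477) and -0.86 ± 0.21 (edgeR adjusted p = 0.00412). CXCL3 had 2.23 and 2.31 RPM against 1.57 and 0.938 in the input and 1.21 and 1.09 against 0.940 and 0.585 in J2 RNA, at -0.85 ± 0.31 (edgeR adjusted p = 0.0326) and -0.59 ± 0.33 (edgeR adjusted p = 0.133).

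The input calls of CXCL2 and CXCL3 were lost when scaled to the typical gene, at -0.43 each with median-of-ratios scaling. Without the second input library with the drug, CXCL3 moved to -0.53 and its call was lost, as it was without either input library with DMSO and without the first J2 library with DMSO. CXCL1, CXCL2 and CXCL3 are close copies of each other, so reads could be split between them.

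The 9 low-count members, below 1 RPM, are given by their reads alone. Summed over 8 libraries, spliced reads numbered 87 for IL1A, 71 for CSF2, 63 for CXCL8, 56 for CXCL1, 29 for IL11, 18 for PTGS2, 16 for CCL20, 14 for IL1B and 0 for CCL2. For CCL2, at 0 of 47000000 to 57000000 reads, a count of 0 allows up to 3 reads a library. IL1A had 52 spliced reads in the 2 input libraries with DMSO and 8 in the 2 with the drug, and CXCL1 had 35 and 8. CXCL8 had 19 and 10, CSF2 19 and 22, and the 12 reads of CCL20 in J2 RNA with the drug included 11 from 1 library. These genes did not pass the filter. In a fit without it, which tested all but CCL2, 1 of the 8 was called in the input and 0 in J2 RNA: IL1A fell in the input, at -2.61 ± 0.85 (edgeR adjusted p = 0.0167). CXCL1 was at -2.04 ± 0.85 there (edgeR adjusted p = 0.0574). CCL20 in J2 RNA also had an unadjusted p under 0.05, at 5.58 ± 2.37 (edgeR adjusted p = 0.0633). Without the filter 14.3% of all genes rose and 35% fell in the input, and 24.6% rose and 27.8% fell in J2 RNA.

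The other target genes were ICAM1, TNFAIP2 and SOD2. ICAM1, a leukocyte adhesion molecule, had 2.52 and 2.98 RPM against 2.66 and 3.15 in the input and 1.75 and 1.61 against 1.96 and 2.23 in J2 RNA. Neither change passed, at 0.08 ± 0.19 (edgeR adjusted p = 0.735) and 0.31 ± 0.20 (edgeR adjusted p = 0.181). TNFAIP2, a TNF-induced gene, went from 59.0 and 63.2 RPM to 27.8 and 30.6 in the input and from 45.5 and 44.0 to 33.1 and 33.8 in J2 RNA, at -1.07 ± 0.07 (edgeR adjusted p = 6.09e-07) and -0.42 ± 0.07 (edgeR adjusted p = 0.000346). SOD2, the mitochondrial superoxide dismutase, had 21.6 and 22.9 RPM against 16 and 18.2 in the input and 13.9 and 13.3 against 13.9 and 13.6 in J2 RNA. Its fall of -0.38 ± 0.09 in the input (edgeR adjusted p = 0.00309) was near the median of all genes and turned to 0.03 with median-of-ratios scaling.

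**Figure D3:**
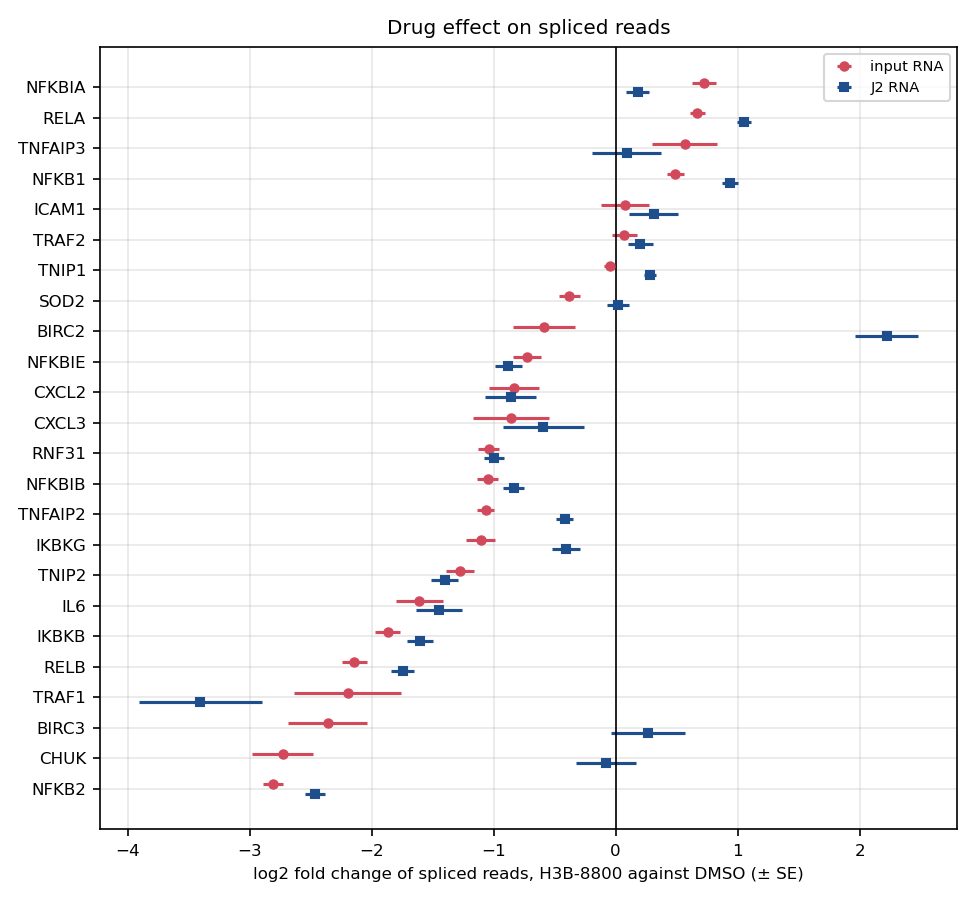
Log2 fold change of spliced reads with H3B-8800 against DMSO for the 24 tested members, in input RNA (circles) and J2 RNA (squares), with bars of 1 SE. BIRC2, BIRC3 and CHUK lie apart between the fractions, with input values of -0.59, -2.36 and -2.73 against 2.22, 0.27 and -0.08 for J2 RNA.

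The drug effect differed between J2 and input RNA for 12 of 24 members (edgeR interaction, adjusted p under 0.05), 11 of them with a more positive change in J2 RNA and 1 with a less positive one. Of all genes, 35.8% were more positive and 13.8% less. With median-of-ratios scaling the split was 4 and 3, against 21.5% and 25.9% of all genes. With DESeq2 it was 4 and 1, against 19.4% and 22.9%. BIRC2 (2.81 ± 0.36, edgeR adjusted p = 0.000306), CHUK (2.65 ± 0.35, edgeR adjusted p = 0.000352), BIRC3 (2.63 ± 0.44, edgeR adjusted p = 0.00116), TNFAIP2 (0.65 ± 0.10, edgeR adjusted p = 0.000607) and, in the other direction, NFKBIA (-0.55 ± 0.14, edgeR adjusted p = 0.00878) kept their calls under TMM, median-of-ratios and DESeq2 scaling. BIRC2, CHUK and BIRC3 were also lower in J2 than in input RNA with DMSO, by -1.19, -1.89 and -1.26 on the log2 scale. In that comparison 5 members were higher in J2 RNA and 8 lower, against 16.4% and 44.3% of all genes. With median-of-ratios scaling the split turned to 10 and 4, and that of all genes to 36% and 26.9%. With the drug, 13 members were higher in J2 RNA and 3 lower, against 28.2% and 27.4%. RNF31 and TNIP2 were higher in J2 RNA in both conditions, by 0.89 and 1.00 with DMSO and by 0.93 and 0.87 with the drug. These comparisons share libraries with the drug effects above.

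Intronic reads rose in many members, as they did in most genes. Among the 24 members chosen by their spliced reads alone, intronic reads rose in 14 and fell in none with the drug in the input, against 50% and 3.89% of 8404 genes, with median log2 changes of 1.85 for the members and 1.26 for all. In J2 RNA 15 rose and none fell, against 57.7% and 3.44%, with medians of 2.08 and 1.74. The values given for single genes come from the fit on genes past 1 RPM of intronic reads, which held 13 members. Of these, 8 reached that level in H3B-8800 libraries only, so that the filter itself favours rises and the counts are a description: all 13 rose and none fell in the input, against 78.3% and 6.51% of all 3992 genes tested, and 12 rose and none fell in J2 RNA, against 83.7% and 5.74%. Median-of-ratios scaling, which removes the rise common to most genes, left 7 up and 2 down in the input, against 33.6% and 34.2% of all genes, and 6 up and 2 down in J2 RNA, against 35.6% and 34.8%. The 7 members with the largest rises in the input were, in order, TNIP2, RNF31, SOD2, RELA, TNIP1, TNFAIP2 and RELB. Of these 7, spliced reads of TNIP2, RNF31, TNFAIP2, RELB and SOD2 fell, those of RELA rose, and TNIP1 was not called. The drug effect on intronic reads was more positive in J2 RNA for 4 members and less positive for 2, against 25.7% and 2.93% of all genes. With median-of-ratios scaling the split was 1 and 3, against 8.42% and 10.2% of all genes. Without the second input library with DMSO, 3 members were called. Between J2 and input RNA, 2 of the 13 were higher in J2 RNA and 3 lower with DMSO, against 7.84% and 29.4% of all genes, and 5 were higher and 2 lower with the drug, against 26.5% and 18.9%. With median-of-ratios scaling these splits were 5 and 0, against 21.4% and 13.5% of all genes, and 3 and 2, against 25.3% and 20.3%.

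**Figure D4:**
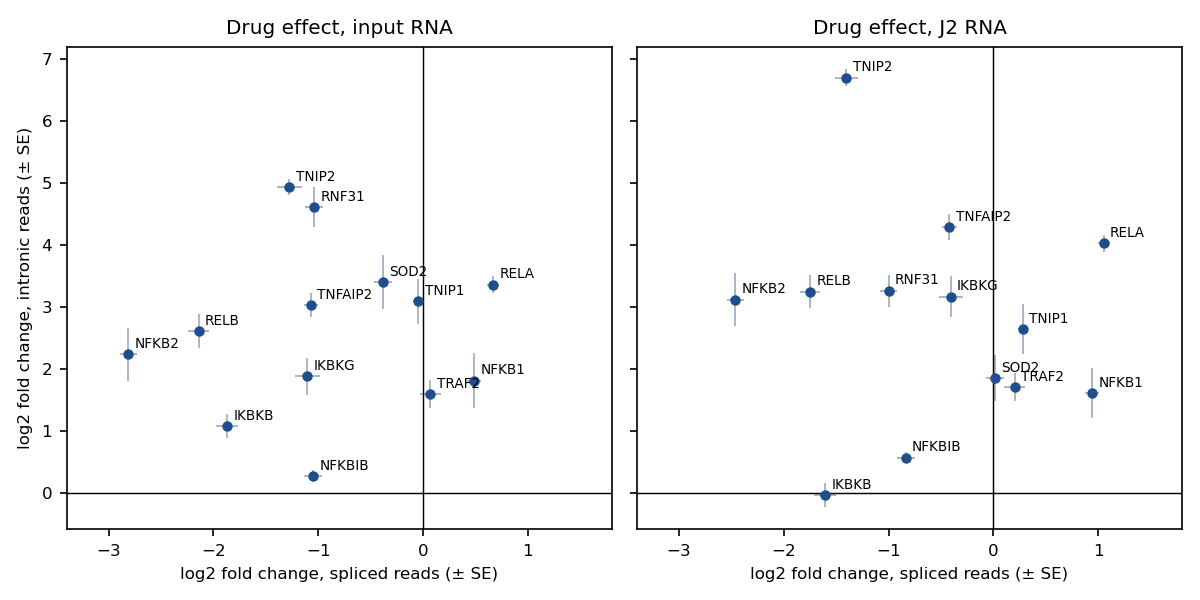
Log2 fold change with H3B-8800 of intronic reads (vertical axis) against that of spliced reads (horizontal axis) for the 13 members tested on both, in input RNA (left) and J2 RNA (right), with bars of 1 SE. In the input all 13 lie above 0 on the vertical axis, and RELA and NFKB1 were called up on both axes, at 3.36 and 1.82 for intronic reads.

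TNIP2 had intronic reads of 1.10 and 1.00 RPM with DMSO and 30.9 and 33.7 with the drug in the input, and 0.528 and 0.754 against 67.2 and 68.1 in J2 RNA. The rises were 4.94 ± 0.13 (edgeR adjusted p = 6.36e-22) and 6.71 ± 0.14 (edgeR adjusted p = 2.14e-24), and they differed by 1.77 ± 0.23 (edgeR adjusted p = 3.18e-06). Its intron 5 of 5 (chromosome 4, 2742521 to 2744386, GRCh38, minus strand) held 98.8% of the gene's intronic reads in the input with the drug.

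RNF31 went from 0.208 and 0.137 RPM of intronic reads to 4.19 and 4.38 in the input and from 0.340 and 0.737 to 5.82 and 4.70 in J2 RNA. The rises were 4.62 ± 0.33 (edgeR adjusted p = 4.73e-13) and 3.27 ± 0.26 (edgeR adjusted p = 3.8e-12). RELA went from 1.31 and 1.49 RPM to 14.3 and 14.7 in the input and from 1.42 and 1.44 to 24.7 and 22.02 in J2 RNA, at 3.36 ± 0.14 (edgeR adjusted p = 3.06e-18) and 4.03 ± 0.13 (edgeR adjusted p = 1.44e-20). In RELA, intronic and spliced reads rose together, so that its intronic share went from 2.97% and 3.20% to 17.0% and 17.2% in the input.

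TNFAIP2 went from 0.667 and 0.961 RPM to 6.62 and 6.83 in the input and from 0.453 and 0.439 to 8.52 and 9.08 in J2 RNA, at 3.04 ± 0.19 (edgeR adjusted p = 5.25e-14) and 4.30 ± 0.21 (edgeR adjusted p = 6.1e-17). RELB went from 0.354 and 0.765 RPM to 3.66 and 3.27 in the input and from 0.396 and 0.667 to 5.68 and 4.55 in J2 RNA, at 2.61 ± 0.28 (edgeR adjusted p = 2.38e-09) and 3.25 ± 0.27 (edgeR adjusted p = 1.12e-11). With the drug, 44.8% and 43.3% of the RELB reads in the input were intronic, against 1.87% and 3.63% with DMSO.

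SOD2 (3.40 ± 0.44, edgeR adjusted p = 6.39e-08) and TNIP1 (3.10 ± 0.36, edgeR adjusted p = 1.23e-08) rose in the input from very low levels. SOD2 went from 0.0833 and 0.196 RPM to 1.47 and 1.56 there, and from 0.264 and 0.474 to 1.48 and 1.23 in J2 RNA. TNIP1 went from 0.375 and 0.176 RPM to 2.21 and 2.50 in the input, which was still only 0.852% and 0.938% of its reads, and from 0.245 and 0.123 to 1.2 and 1.11 in J2 RNA. NFKB2 went from 0.229 and 0.196 RPM to 0.936 and 1.08 in the input and from 0.113 and 0.175 to 1.38 and 1.19 in J2 RNA. NFKB1 went from 0.292 and 0.216 to 1.15 and 0.646 in the input and from 0.321 and 0.368 to 1.22 and 0.906 in J2 RNA. The rises of NFKB2 in the input (2.24 ± 0.43, edgeR adjusted p = 2.85e-05) and of NFKB1 (1.82 ± 0.45, edgeR adjusted p = 0.00054) were not called once scaled to the typical gene.

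IKBKG went from 0.625 and 0.549 RPM of intronic reads to 1.87 and 2.46 in the input and from 0.170 and 0.333 to 2.66 and 1.96 in J2 RNA. TRAF2 went from 0.896 and 1.29 RPM to 3.34 and 3.29 in the input and from 1.17 and 1.02 to 3.38 and 3.77 in J2 RNA. Both were called up with depth scaling, at 1.88 ± 0.30 (edgeR adjusted p = 2.23e-06) and 1.59 ± 0.23 (edgeR adjusted p = 3.45e-07) in the input. With median-of-ratios scaling TRAF2 turned to -0.09 and IKBKG moved to 0.20 (edgeR adjusted p = 0.577), so neither was called.

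IKBKB differed between the fractions. Its intronic reads went from 1.79 and 1.82 RPM to 3.74 and 3.90 in the input, at 1.08 ± 0.20 (edgeR adjusted p = 1.43e-05). In J2 RNA they were 2.19 and 2.30 RPM with DMSO and 2.18 and 2.21 with the drug, at -0.03 ± 0.20 (edgeR adjusted p = 0.877). The difference was -1.11 ± 0.28 (edgeR adjusted p = 0.00377), and relative to the typical gene IKBKB fell in the input too, at -0.60 with median-of-ratios scaling.

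NFKBIB had many intronic reads in all libraries: 36.2 and 38.8 RPM with DMSO and 46.2 and 44.5 with the drug in the input, and 38.0 and 36.8 against 59.7 and 51.4 in J2 RNA. The change in the input was 0.27 ± 0.09 (edgeR adjusted p = 0.00709) and turned to -1.41 with median-of-ratios scaling. Its intron 5 of 5 (chromosome 19, 38907660 to 38908730) held 99.5% of these reads in the input with DMSO and contains an exon of another NFKBIB transcript, so these reads need not come from unspliced RNA.

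The log2 ratio of intronic to spliced reads per gene (each + 1) rose in 19 of 24 members in the input and in 16 in J2 RNA, with none falling (limma, Benjamini-Hochberg over 8853 genes). Of all genes, 56.4% rose and 2.03% fell in the input, and 54.8% rose and 4.89% fell in J2 RNA. With median-of-ratios scaling 9 rose and 1 fell in each, where all genes had 21% and 13.8% (input) or 25.2% and 18.4% (J2). TNIP2 had the highest rise, 6.19 ± 0.29 (limma adjusted p = 0.000129) in the input, followed by RNF31 at 5.55 ± 0.43 (limma adjusted p = 0.000189), NFKB2 at 4.96 ± 0.31 (limma adjusted p = 0.000135), RELB at 4.82 ± 0.40 (limma adjusted p = 0.000219) and TNFAIP2 at 4.11 ± 0.26 (limma adjusted p = 0.000132). For NFKB2 in the input, spliced reads fell (-2.81) and intronic reads rose (2.24) by similar amounts with depth scaling. With median-of-ratios scaling its intronic change was 0.56 and was not called (edgeR adjusted p = 0.266). It rests on 21 intronic reads with DMSO and 96 with the drug. The drug effect on the ratio differed between J2 and input RNA in 0 of 24 members by limma, against 0.0226% of all genes, and in 6 members at an unadjusted p under 0.05, where 21.2% of all genes lay. With a pseudocount of 5 in place of 1, 3 members and 8.86% of all genes were called.

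Single introns show where these reads lie. Of the 248 introns, 171 had a mean of 20 reads and were tested. In the input 94 rose in their ratio and 1 fell, against 40.8% and 2.75% of all 45220 introns tested. In J2 RNA 86 rose and 13 fell, against 39.8% and 6.42%, and 61 were called without the second J2 library with DMSO. Many of these calls rest on spliced reads alone: 18 of the 94, the 1 fall and 10 of the 13 falls had no intronic read in the 4 libraries compared, so only the pseudocount and the spliced count moved. All 20 tested introns of NFKB2 were called up in the input, although only 3 had 20 intronic reads over the 8 libraries. Among the 70 introns with at least 20 intronic reads, 52 rose and none fell in the input, against 57.8% and 1.8% of 19488 such introns of all genes. In J2 RNA 52 rose and 1 fell, against 58.6% and 3.18%. Introns can reach this limit through the drug libraries alone, so these counts are a description. Their median length was 1443 bases and their pooled intronic share had a median of 1.78% with DMSO and 19.3% with the drug in the input.

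The exon junctions of 4 introns with large rises and of 4 with little change are shown to set the exon ends of both kinds side by side. The first 4 have the largest rises in the input among introns called in both fractions, with at least 20 intronic reads and coding flanks, at 1 intron a gene and leaving out IKBKB. RELA appears in both sets. Each is 20 bases of the upstream exon in lower case and 20 bases of the downstream exon in capitals, 5′ to 3′ on the gene's strand, from GENCODE 29 transcripts (GRCh38). Intron sequence was not used here. All lie in coding sequence. For RNF31 intron 5 of 20, RELB intron 5 of 11, TNIP2 intron 5 of 5 and RELA intron 3 of 11, in that order, the joined exons read:
RNF31 intron 5: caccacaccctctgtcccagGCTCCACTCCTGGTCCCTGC
RELB intron 5: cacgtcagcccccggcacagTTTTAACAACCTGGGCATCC
TNIP2 intron 5: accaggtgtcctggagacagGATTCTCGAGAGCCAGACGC
RELA intron 3: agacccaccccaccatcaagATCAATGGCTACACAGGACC
For the introns of least change among those with at least 800 spliced reads, again 1 a gene, they read:
TNIP1 intron 10: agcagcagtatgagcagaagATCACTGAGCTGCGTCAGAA
TNFAIP2 intron 6: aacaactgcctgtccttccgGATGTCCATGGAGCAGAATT
NFKB1 intron 18: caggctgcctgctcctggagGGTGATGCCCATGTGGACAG
RELA intron 9: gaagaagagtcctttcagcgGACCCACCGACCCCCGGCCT
All 8 upstream exons end in g.

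With the drug in the input, only NFKBIB intron 5 held more intronic reads (4186) than TNIP2 intron 5 (3035). With DMSO they had 3701 and 97. The intronic share of TNIP2 intron 5 was 17.4% and 15.1% with DMSO and 94.97% and 93.4% with the drug in the input. In J2 RNA it was 4.53% and 5.73% against 93.6% and 94.7%. The 2 input libraries with the drug held 1434 and 1601 intronic reads against 76 and 114 spliced reads, a pooled share of 94.1% with a 95% Clopper-Pearson interval of 93.2% to 94.9%, which covers counting error only, as PCR copies are not independent molecules. The ratio rose by 6.36 ± 0.36 (limma adjusted p = 0.000261) and 8.18 ± 0.36 (limma adjusted p = 0.000166). The gene's other listed intron, intron 2, reached only 16.5% and 16.1% in the input.

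RNF31 intron 5 of 20 (chromosome 14, 24148877 to 24149405, plus strand) had shares of 0% and 1.28% with DMSO and 75.6% and 71.0% with the drug in the input, and 5.88% and 2.63% against 65.0% and 53.3% in J2 RNA. Intron 17 (24158012 to 24158141, 130 bases long) went from 1.96% and 0% to 62.3% and 48.0% in the input. Intron 16 next to it had 12.5% and 4.41% with DMSO and 11.3% and 2.04% with the drug, at -0.35 ± 0.82 (limma adjusted p = 0.754). The high share of intron 17 was not seen at this neighbour.

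Most reads at 3 introns of RELB were intronic with the drug in the input. Intron 4 (chromosome 19, 45012277 to 45022052) went from 8.51% and 12.4% to 82.1% and 85.9%, intron 5 (45022211 to 45025328) from 1.87% and 1.72% to 80.3% and 74.6%, and intron 10 (45034313 to 45034450) from 3.12% and 9.68% to 84.6% and 74.1%. In J2 RNA they reached 87.8% and 78.4%, 69.3% and 68.5%, and 73.0% and 76.7%. Pooled over the 2 input libraries with the drug, the share of intron 10 was 80.3% with a 95% Clopper-Pearson interval of 68.7% to 89.1%, which covers counting error only. Introns 4 and 5 are also where the spliced reads of RELB dropped.

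In TNFAIP2, intron 9 of 10 (chromosome 14, 103133518 to 103133681) went from 7.20% and 4.92% to 69.2% and 71.8% in the input and from 5.58% and 5.04% to 69.5% and 70.2% in J2 RNA. Intron 1 went from 3.49% and 6.95% to 54.6% and 51.4% in the input. Intron 10, the next after intron 9, reached only 3.61% and 5.80%. NFKB2 intron 14 of 22 (chromosome 10, 102399719 to 102400079) went from 4.61% and 3.14% to 68.6% and 46.2%, on 24 and 18 intronic reads.

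Shares at RELA introns were lower, though introns of unlike length are not comparable by their share. Intron 3 of 11 (chromosome 11, 65661836 to 65661936, 101 bases) went from 1.52% and 0% to 29.2% and 29.3% in the input and from 3.44% and 1.60% to 29.4% and 36.5% in J2 RNA. Intron 4 (65660216 to 65661686) went from 9.40% and 10.4% to 42.4% and 34.2% in the input and from 8.72% and 15.3% to 52.6% and 48.5% in J2 RNA. At both introns the spliced reads rose as well, at intron 3 from 325 and 363 to 395 and 436 in the input.

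In the IKK complex, IKBKG intron 3 of 9 (chromosome X, 154556377 to 154558531) went from 8.77% and 7.14% to 53.3% and 49.2% in the input. IKBKB intron 6 of 20 went from 2.11% and 0.909% to 53.8% and 67.1% in the input but from 0% and 4.50% to 16.7% and 20.5% in J2 RNA. IKBKB intron 4 already had 45.1% and 46.4% with DMSO in the input and reached 87.8% and 73.8%. Both IKBKB introns lie on chromosome 8. The share of intron 6 is one place where J2 RNA stayed far below the input.

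TRAF2 intron 7 of 10 (chromosome 9, 136916616 to 136920233) went from 1.25% and 0% to 47.3% and 38.9% in the input and from 0.833% and 2.17% to 28.5% and 25.0% in J2 RNA. TRAF2 intron 1, which contains the miRNA gene MIR4479, had 55.6% and 64.8% with DMSO and 51.9% and 51.4% with the drug, at -0.50 ± 0.43 (limma adjusted p = 0.385). SOD2 intron 3 of 4 (chromosome 6, 159682639 to 159684853) went from 0.966% and 4.78% to 25.4% and 23.7%, and intron 1 stayed at 0.535% and 0.614% with the drug. ICAM1 intron 6 (chromosome 19, 10285029 to 10285114) went from 0% and 0% to 15.8% and 42.9% in the input, but it overlaps the antisense gene AC011511.2, and the strand setting of the counting is not given in the sources used here.

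The remaining members had few intronic reads. TNIP1 intron 6 of 17, its most-read intron with the drug in the input, went from 0 and 0 intronic reads to 37 and 23, a share of 3.29% and 2.19%. IL6 intron 1 of 4 went from 11.1% and 9.52% to 32.1% and 19.1% in the input while its intronic reads stayed near 20 a library (19, 18, 17 and 13), so the share moved with the spliced reads. NFKBIA intron 1 had 1.42% and 4.76% with DMSO and 1.13% and 0.984% with the drug. NFKB1 intron 23 of 23 went from 0 and 2 intronic reads to 24 and 9, beside 385 and 397 spliced reads. NFKBIE intron 1 had 5.15% and 7.08% with DMSO and 26.4% and 6.35% with the drug, which overlap. CXCL2, BIRC2, BIRC3, CHUK, TRAF1, CXCL3 and TNFAIP3 had at most 22 intronic reads in any library.

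**Figure D5:**
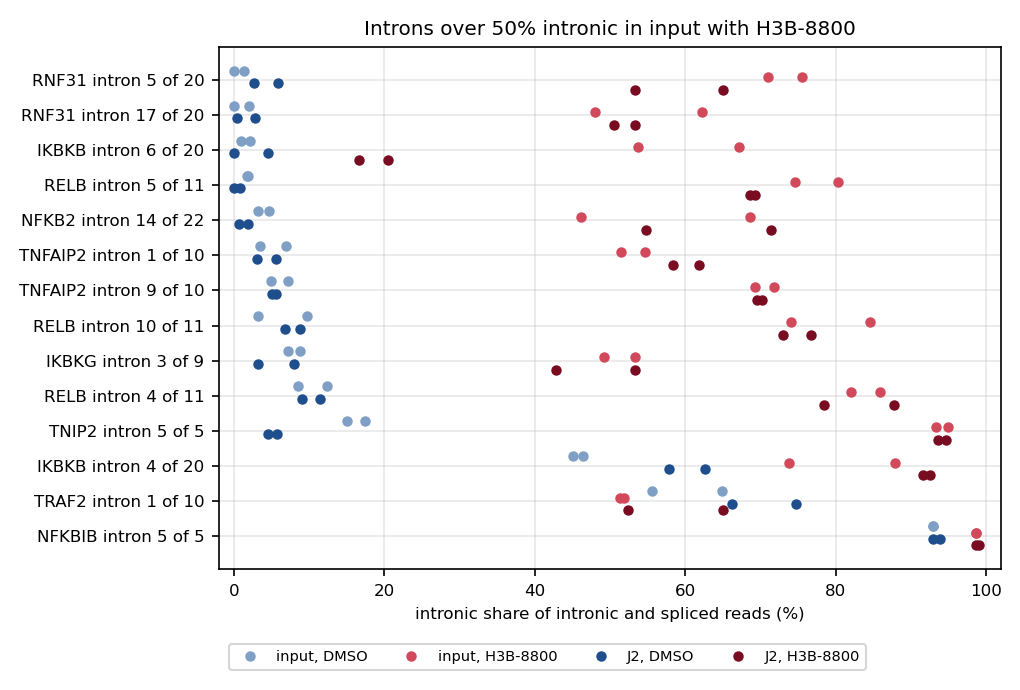
Intronic share (%) in each library of the 14 tested introns over 50% in the input with H3B-8800, a limit chosen after the values were seen. The points are single libraries, and RNF31 intron 5 at the top goes from 0% and 1.28% to 75.6% and 71.0% in the input, while NFKBIB intron 5 and TRAF2 intron 1 are over 50% in all 8 libraries.

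The 14 introns over 50% in the input with the drug were 130 to 12171 bases long (median 1469), and 6 of them contain an exon of another transcript of the same gene. As the share is not corrected for length, a limit of 50% does not mean the same for short and long introns. By position, 2 were first introns, 2 were last and 10 lay between. With DMSO 2 of the 14 were over 50%. Among the 70 introns with at least 20 intronic reads, 12 of 52 called up and 2 of 18 not called were shorter than 200 bases. Another 34 of the 171 tested introns had no intronic read in any library, with a median length of 455 bases and up to 29030. Long and short introns thus occur on both sides.

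Promoters were searched because many members are known NF-kB targets. In the 250 bases before the gene start (RefSeq, GRCh38.p14), the kB consensus, on either strand, occurs in 9 of 30 members with a promoter in the table (30.0%) and in 2614 of 27305 such windows overall (9.57%). A match is a run of letters, not a measured site. As the members were chosen as NF-kB pathway and target genes, these shares are a description and not a test. The matches of CXCL1, CXCL2 and CXCL3 lie in near-identical sequence and are not independent. Shown here are the matching genes whose spliced reads changed, with 1 match each in capitals and 15 bases on either side, on the gene's strand:
IL6: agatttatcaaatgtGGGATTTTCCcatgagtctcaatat
CXCL2: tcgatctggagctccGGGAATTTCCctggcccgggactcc
CXCL3: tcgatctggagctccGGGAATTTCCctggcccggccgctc
BIRC3: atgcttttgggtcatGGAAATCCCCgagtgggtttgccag
NFKBIA: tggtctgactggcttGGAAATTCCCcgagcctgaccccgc
NFKB1: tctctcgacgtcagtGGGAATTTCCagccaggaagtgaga
The runs lie at chr7:22727112-22727151 (IL6, plus strand), chr4:74099249-74099288 (CXCL2, minus), chr4:74038744-74038783 (CXCL3, minus), chr11:102317270-102317309 (BIRC3, plus), chr14:35404806-35404845 (NFKBIA, minus) and chr4:102501295-102501334 (NFKB1, plus). CXCL2 and CXCL3 match on both strands at overlapping bases, and BIRC3 has a further match. The consensus also occurs at TNFAIP3, at 2 places, and at the low-count genes CXCL1 and CCL20. CXCL1, CXCL2, CXCL3 and NFKB1 share the same 10 letters. In the input, spliced reads of IL6, CXCL2, CXCL3 and BIRC3 fell and those of NFKBIA and NFKB1 rose, so the genes with a match had no common direction.

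Genes around the members, taken from lists chosen with earlier results of these data known, were counted in the same fit. Of 12 tested receptors and adaptors upstream of NF-kB, 2 rose and 6 fell in spliced reads in the input, against 21.8% and 48.7% of all genes. Their median log2 change was -0.32, close to the median of all genes. The TNF receptor gene TNFRSF1A rose by 0.73 ± 0.05 (edgeR adjusted p = 1.14e-06), while its adaptor TRADD (-3.24 ± 0.19, edgeR adjusted p = 2.98e-07), the TWEAK receptor TNFRSF12A (-1.58 ± 0.07, edgeR adjusted p = 4.8e-08) and the kinase gene IRAK1 (-0.84 ± 0.05, edgeR adjusted p = 5.57e-07) fell. Of 18 tested kinases and ubiquitin factors, 3 rose and 8 fell, against the same shares of all genes, with a median of -0.32. RBCK1 (-2.16 ± 0.07, edgeR adjusted p = 1.2e-08) and SHARPIN (-1.25 ± 0.06, edgeR adjusted p = 5.58e-08), the partners of RNF31 in LUBAC, both fell, so all 3 LUBAC genes had fewer spliced reads. The ubiquitin-conjugating enzyme genes UBE2L3 (1.49 ± 0.13, edgeR adjusted p = 6.16e-06) and UBE2N (0.81 ± 0.08, edgeR adjusted p = 1.21e-05) rose.

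Of 14 other genes known as NF-kB targets, 4 rose and 6 fell in the input, against 21.8% and 48.7% of all genes, with a median of -0.07. IRF1 (-1.48 ± 0.07, edgeR adjusted p = 1.17e-07), PLAU (-1.29 ± 0.11, edgeR adjusted p = 4.32e-06) and TNFRSF9 (-2.54 ± 0.26, edgeR adjusted p = 1.46e-05) fell and SDC4 rose (0.78 ± 0.10, edgeR adjusted p = 7.76e-05). Among other subunits and IkB-like genes only BCL3 was tested, and it rose by 0.29 ± 0.07 (edgeR adjusted p = 0.00495). Of 4 tested receptors of the member cytokines, IL6R rose in the input, by 1.57 ± 0.14 (edgeR adjusted p = 7.08e-06), and no other was called. In J2 RNA 3 of the 4 rose, where 34.6% of all genes did: IL6R by 2.43 ± 0.16 (edgeR adjusted p = 6e-07), IL6ST by 2.33 ± 0.24 (edgeR adjusted p = 1.7e-05) and LIFR by 3.49 ± 0.37 (edgeR adjusted p = 1.9e-05). IL6ST and LIFR started low in J2 RNA with DMSO, at 1.73 ± 0.31 and 0.315 ± 0.125 RPM (SD, n = 2) against 31.8 ± 0.005 and 3.13 ± 0.41 in the input. Their drug libraries in J2 RNA were widely spread, at 8.70 ± 3.34 and 3.59 ± 1.51 RPM.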

How the data were processed

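The authors deposited 1 table per library without a header. Each holds 2 whole-number read counts per intron, deposited without normalization, and an RPKM from the authors, which equals the first count over intron length and a round depth. HISAT2 2.0.4 and the builds hg38 and mm10 come from the submitters' processing notes; the counting program and its strand setting are not given in the sources used here. The first deposited count was taken as intronic reads and its difference from the second as spliced reads, which was inferred from the values. Per the labels, the libraries hold polyadenylated RNA and were stranded, so introns left in RNA without a poly(A) tail are underrepresented.

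Of 142224 introns, 18 without values were left out, and the rest were placed on GENCODE 29 (GRCh38). Counts were summed per gene, and library sizes were the depths that the RPKM implies. Genes with at least 1 RPM in 2 libraries were tested with edgeR 4.0.16 (quasi-likelihood, 8461 genes for spliced and 3992 for intronic reads). For the ratio, limma 3.58.1 was run on log2 of (intronic + 1)/(spliced + 1), per gene (at least 1 RPM in intronic and spliced reads together, in 2 libraries) and per intron (mean of at least 20 reads). Each fit held all 8 libraries and 4 group means, and p-values were adjusted by Benjamini-Hochberg over the whole table. The fits were tested on simulated data in which a small part of the genes changed, up or down. Those data held no shift common to most genes, so they cannot show how the scaling acts here. Replicate numbers did not pair the libraries. Alternatives were DESeq2 1.42.0, TMM and median-of-ratios scaling, other filters, a pseudocount of 5, introns free of other exons, a replicate block and leaving out each library. A limit of 20 intronic reads per intron was added after the data were seen.

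The members and gene lists were chosen with earlier results of these data known. Every member was named, with values in each library where a filter was passed. For each member tested, the intron with most intronic reads and those with the largest changes were named, and up to 4 genes of each list by the smallest p in the input drug comparison. Other introns were chosen after their values were seen. The planned intron sequences were replaced by exon junctions.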

Additional observations from a re-analysis of the deposited data

Results flagged for a closer look

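The drug effect differed between J2 and input RNA by the interaction term of edgeR's quasi-likelihood fit for 12 members in spliced reads and 6 in intronic reads (2 libraries a group). Values are log2 changes with the drug, J2 minus input.

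In spliced reads the difference was 2.81 for BIRC2, 2.65 for CHUK, 2.63 for BIRC3, 0.70 for IKBKG, 0.65 for TNFAIP2, 0.45 for NFKB1, 0.40 for SOD2, 0.40 for RELB, 0.38 for RELA, 0.35 for NFKB2, 0.33 for TNIP1 and -0.55 for NFKBIA. Scaled to the typical gene (TMM, median of ratios or DESeq2), BIRC2, CHUK, BIRC3, TNFAIP2 and NFKBIA kept their calls and the other 7 lost them or changed sign. BIRC2 in J2 RNA with the drug rests on 2 libraries that stand apart, at 7.96 and 14.6 RPM.

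In intronic reads the difference was 1.77 for TNIP2, 1.29 for IKBKG, 1.26 for TNFAIP2, 0.67 for RELA, -1.11 for IKBKB and -1.35 for RNF31. The calls of IKBKG, TNFAIP2 and RELA were lost under all 3 scalings: with median-of-ratios scaling they moved to 0.83, 0.79 and 0.19 (edgeR adjusted p = 0.228, 0.0879 and 0.559). That of IKBKG was also lost without a filter on low counts, with a replicate block and in 5 of the 8 fits that left out a library, that of RELA in 2 and that of TNFAIP2 in 1. RNF31 lost its call in 6 of the 8 and with introns free of other exons (edgeR adjusted p = 0.0722). It moved furthest, to -0.68, without the second J2 library with DMSO, which held 42 of its intronic reads against 18 in the first. TNIP2 and IKBKB kept their calls in all 8 fits.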

How the results depend on the processing

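The scaling of the libraries mattered most. Between depth and median-of-ratios scaling, the median log2 change of all genes with the drug in the input moved. It went from -0.38 to 0.03 for spliced reads and from 1.73 to 0.05 for intronic reads. Some members with a change near those medians, or between them and 0, changed sign. In the order TMM, median of ratios and DESeq2, the drug effect in the input became 0.0356, 0.0315 and 0.0316 for SOD2 spliced reads, -0.52, -0.60 and -0.61 for IKBKB intronic reads, -1.33, -1.41 and -1.41 for NFKBIB intronic reads and -0.00745, -0.0899 and -0.0887 for TRAF2 intronic reads. In J2 RNA, intronic reads became -0.49, -0.54 and -0.54 for NFKB1, -1.54, -1.59 and -1.59 for NFKBIB, -0.24, -0.29 and -0.29 for SOD2 and -0.40, -0.45 and -0.45 for TRAF2. The spliced interaction became -0.0212, -0.00831 and -0.00835 for TNIP1 and -0.000819 for NFKB2 with TMM. Under median-of-ratios scaling the ratio in the input became -0.25 for IL6, -0.43 for NFKB1, -0.37 for NFKBIB and -0.15 for TRAF2, and in J2 RNA -0.16 for IKBKB, -0.34 for NFKBIB and -0.24 for TRAF2. That scaling called 7 members for the spliced interaction (47.3% of all genes), and DESeq2 called 5 (42.3%). Median-of-ratios scaling called 10 members for the ratio in the input (34.9% of all genes) and 10 in J2 RNA (43.7%). TMM called 4 for intronic reads in J2 against input RNA with the drug (45.2%). For the ratio interaction, 3 members were called with a pseudocount of 5 (8.86% of all genes) and 2 with both filters (9.77%). Of introns, 58 were called in the input and 56 in J2 RNA at a mean of 100 reads, against 49.6% and 53.6% of all introns. With at least 20 intronic reads 52 and 53 were called. These intron counts are lower since fewer were tested.

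Leaving out 1 library gave 18 to 20 members called for spliced reads with the drug in the input, 15 to 18 in J2 RNA, 9 to 12 for the interaction, 10 to 13 for J2 against input RNA with DMSO and 14 to 16 with the drug. With all 8 libraries, 70.4%, 74.1%, 49.6%, 60.7% and 55.6% of all genes were called in that order, up and down together. For intronic reads the ranges were 11 to 13, 11 to 12, 3 to 6, 2 to 5 and 3 to 7; the lowest were without the second input library with DMSO (3), without the first input or the second J2 library with DMSO (2) and without the second input library with the drug (3). Ratio calls ranged from 14 to 18 in the input, 15 to 17 in J2 RNA and stayed at 0 for the interaction, and intron calls from 72 to 95 and from 61 to 101. With all 8 libraries, 84.8%, 89.5%, 28.7%, 37.2% and 45.3% of all genes were called for intronic reads, in the order above. The shares for the ratio were 58.5%, 59.7% and 0.0226% of all genes, and for introns 43.6% and 46.2% of all introns. Libraries with the same replicate number did not deviate together (correlations from -0.09 to 0.13). A replicate block gave 20 members for spliced reads in the input (70.1% of all genes) and 12 for the spliced interaction (48.4%). It gave 13 for intronic reads in the input (84.3%), 5 for the intronic interaction (26.5%) and 19 for the ratio in the input (57.2%). Of introns, 91 and 93 were called with it, against 41.9% and 44.4% of all introns. With the block, IKBKG lost its intronic interaction call (edgeR adjusted p = 0.0525). Depth limits the 9 members below 1 RPM: without a filter 8 were tested and 1 was called (IL1A, in the input). That fit called 49.3% of all genes in the input and 52.5% in J2 RNA. The cause of these changes was not tested beyond the scaling itself and the number of features or libraries in the fit.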
